A study of Mus musculus with 12 samples.

Results

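The comparison described here sets mouse spinal cord that had been injured and had received allogeneic mesenchymal stem cells (MSCs) against spinal cord that had not been injured. It uses 6 of the 12 libraries of a bulk RNA sequencing series, chosen by their labels: 3 of the allogeneic group (titles 204, 205 and 210, here allogeneic libraries 1, 2 and 3) and 3 of the non-injured group (titles 119, 120 and 121, here non-injured libraries 1, 2 and 3). The other 6 libraries are 3 of cord injured and given no cells (SCI alone) and 3 of injured cord given syngeneic cells. All 12 are labelled as spinal cord of C57BL6/cJ mice. Not given in the sources used here are the time after injury, the strain of the cell donors, and the age and sex of the mice. Nor do the labels say whether the 3 libraries of a group came from separate animals, so p-values measure only the spread between these samples, which may be technical. The groups differ by both the injury and the cells, which this comparison cannot tell apart. Their title numbers form separate ranges, so any handling that went with those numbers cannot be told apart from the group either.

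MSCs are stromal cells grown from bone marrow or other tissue, and they are called allogeneic when the donor differs from the host in its tissue antigens. Injury opens the blood-spinal cord barrier, kills neurons and oligodendrocytes and draws in phagocytes that clear myelin, while astrocytes and fibroblasts form a scar around the lesion. T cells recognise peptides, or foreign tissue antigens, on major histocompatibility complex (MHC) molecules: class I molecules, made by most cells, are read by CD8 T cells, and class II molecules, made by antigen-presenting cells, by CD4 T cells. Interferon-gamma, made by activated T and natural killer cells, raises both classes in the cells around.

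Total counts were 15119497, 8705942 and 21265564 in allogeneic libraries 1, 2 and 3 and 26151928, 15518403 and 21809868 in non-injured libraries 1, 2 and 3. Levels are in CPM, counts scaled to library depth with TMM factors, always in that order of libraries. A difference is a log2 fold change ± its standard error (SE), allogeneic over non-injured, from edgeR's quasi-likelihood test, and a gene is called when its Benjamini-Hochberg adjusted p over all 16527 genes tested is below 0.05. Cord markers were present in all 6 libraries. The synaptic gene Snap25 was at 2204, 1727 and 2034 against 3735, 3330 and 3146 CPM, and the myelin gene Mbp at 10170, 14770 and 13520 against 16400, 12330 and 32910 CPM. The position genes Hoxc6, Hoxc8 and Hoxc9 lay between 9.92 and 66.7 CPM. Non-injured library 3 stood apart: mitochondrial genes took 10.9% of its counts, 8.18% and 7.46% in its group's other libraries and 5.14% to 5.62% in the allogeneic ones. All 16 mature myelin genes tested were highest in it. Non-injured library 1 held few Schwann cell transcripts, with the peripheral myelin gene Prx at 43.6, 85.97 and 61.8 against 0.425, 42.9 and 59.1 CPM. Allogeneic library 1 correlated with the other allogeneic libraries at r = 0.972 to 0.973 and with the SCI alone libraries at 0.984 to 0.987, across genes, which are not independent replicates.

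Of the 16527 genes tested, 2762 (16.7%) were higher and 1350 (8.17%) lower in the allogeneic group. The rises were also the larger changes, with 933 genes (5.65%) rising and 13 (0.0787%) falling by more than 2 on the log2 scale. The median log2 fold change of all genes tested was -0.01. The levels of the groups did not overlap for 37% of the genes, 21.1% higher and 15.9% lower in every allogeneic library. Most list genes named below were chosen for the smallest p of their list. That their groups lie apart therefore describes them and adds no support. The count of falls depended on single libraries: it was 565 without allogeneic library 2, 796 without allogeneic library 3 and 730 without non-injured library 1, whereas the count of rises stayed between 1987 and 3055. With library totals in place of TMM factors 3170 genes were higher and 924 lower, so that 77.4% of the called genes were higher, against 67.2%. The 53 gene lists described below hold 808 different genes, of which 746 were tested, 362 higher and 86 lower. In SCI alone 2736 genes (16.6%) were higher and 1530 (9.26%) lower than in non-injured cord, a comparison that shares the non-injured libraries. In the syngeneic group 883 genes (5.34%) differed from the same libraries, 813 (4.92%) higher and 70 (0.424%) lower. Tested directly, 31 genes (0.188%) differed between the allogeneic group and SCI alone, and those are described last.

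**Figure D1:**
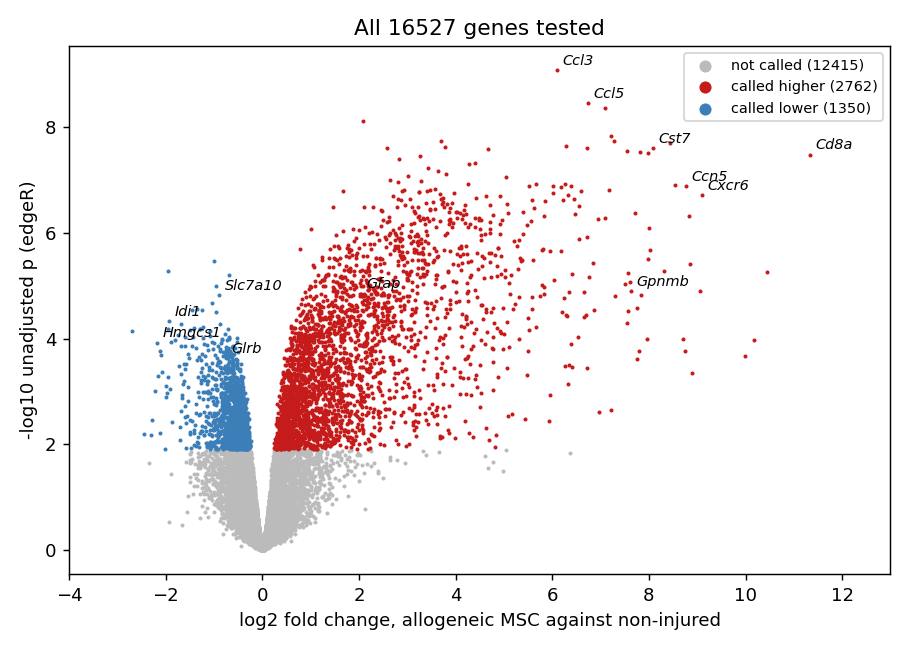
Each point is 1 of the 16527 genes tested; the x axis is the log2 fold change of the allogeneic over the non-injured group and the y axis the -log10 of the unadjusted p from edgeR. The 2762 genes called higher reach much further from 0 than the 1350 called lower; for a gene with no count in 1 group, such as Cd8a, the plotted value is the fitted one and no bound.

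The 12 largest called rises, among genes with a mean log2 CPM of at least 1, were Ccn5, Cst7, Gpnmb, Sprr1a, Itgax, Tgm1, Siglec1, Ccl5, Cd22, Clec7a, Ms4a7 and Gm49339, with log2 fold changes from 8.76 down to 6.60. Ccn5, a secreted protein of the CCN family, was at 45.7, 79.1 and 34.5 against 0.0386, 0.125 and 0.205 CPM (log2 fold change 8.76 ± 0.77, adjusted p = 5.72e-05; log2 fold change 9.38 without non-injured library 3). Cst7, a protease inhibitor of activated microglia, was at 65.6, 88 and 63.9 against 0.348, 0.187 and 0.205 CPM (log2 fold change 8.09 ± 0.61, adjusted p = 3.01e-05). Sprr1a, a small proline-rich protein induced in injured neurons, was at 23.5, 41.5 and 65.5 against 0.271, 0.187 and 0.205 CPM (log2 fold change 7.54 ± 0.58, adjusted p = 3.01e-05). Each was below 0.5 CPM in the non-injured libraries and above 10 CPM in every allogeneic library. Siglec1, a sialic acid receptor of macrophages, was at 21.5, 31.2 and 17.2 against 0.155, 0.125 and 0.308 CPM (log2 fold change 6.84 ± 0.83, adjusted p = 0.000193). Cd22, another sialic acid receptor, was at 15.8, 27.6 and 25.2 against 0.232, 0.125 and 0.256 CPM (log2 fold change 6.71 ± 0.73, adjusted p = 0.000107). Gm49339 was at 25.4, 47.2 and 48.02 against 0.464, 0.4997 and 0.256 CPM (log2 fold change 6.60 ± 0.59, adjusted p = 5.73e-05), and since its exons overlap Lilr4b and Lilrb4a on the same strand its counts are uncertain. Of these 12 genes, Ccl5 was the one whose difference from SCI alone was also called.

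The 12 largest called falls, taken by the same rule and so without overlap between the groups, ran from -2.22 to -1.68. Cholesterol synthesis supplied 4 of them, Hmgcs1, Idi1, Msmo1 and Cyp51, described below with their pathway. Slc5a11, an inositol transporter, was at 2.14, 3.16 and 0.8303 against 5.91, 6.496 and 14.5 CPM (log2 fold change -2.22 ± 0.51, adjusted p = 0.00846). Uts2b, the gene of the peptide urotensin 2B, was at 3.83, 2.93 and 2.12 against 6.65, 8.56 and 24.5 CPM (log2 fold change -2.17 ± 0.45, adjusted p = 0.00524; log2 fold change -1.38 without non-injured library 3). Lgr6, a receptor for R-spondins, was at 4.86, 2.26 and 5.03 against 14.5, 12.5 and 13.2 CPM (log2 fold change -1.68 ± 0.27, adjusted p = 0.00107). mt-Tl1, a mitochondrial leucine tRNA gene, was at 3.44, 2.82 and 1.57 against 10.5, 9.37 and 9.74 CPM (log2 fold change -1.94 ± 0.32, adjusted p = 0.00121). Because the libraries were poly(A) selected, these counts may not measure the mature tRNA. Kirrel2, an adhesion protein, was at 1.56, 0.7898 and 0.8303 against 4.95, 3.25 and 3.95 CPM (log2 fold change -1.92 ± 0.43, adjusted p = 0.00788). Npb, the precursor of neuropeptide B, was at 1.36, 0.677 and 2.21 against 4.14, 3.19 and 9.33 CPM (log2 fold change -1.88 ± 0.52, adjusted p = 0.0208; log2 fold change -1.28 without non-injured library 3); its adjusted p rose to as much as 0.0750 without allogeneic library 1 or 2 or non-injured library 3. Among unannotated transcripts, 4930432E11Rik fell by 2.11 (adjusted p = 0.00237) and A930006I01Rik by 2.02 on the log2 scale (adjusted p = 0.0489), the latter with an adjusted p of up to 0.165 and no call when any 1 of the 6 libraries was left out.

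**Figure D2:**
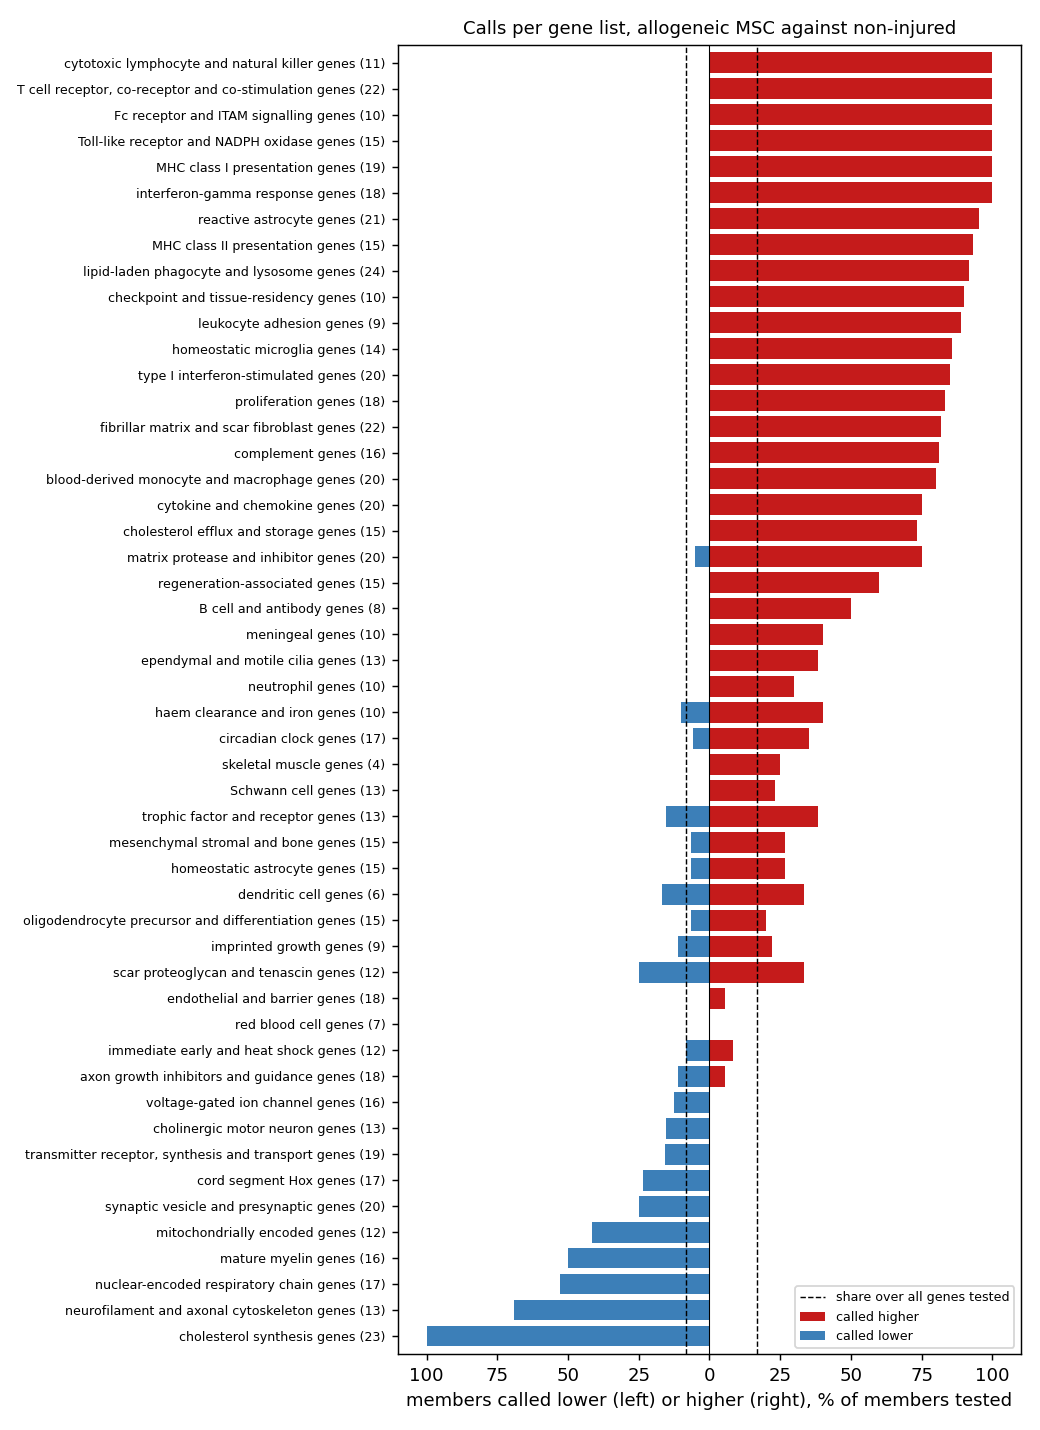
For each gene list with at least 4 tested members (their number in brackets) the bars give the percentage of tested members called higher, to the right, or lower, to the left, in the allogeneic against the non-injured group; the dashed lines are the shares over all genes tested, 16.7% and 8.17%. Immune lists fill the right side, and cholesterol synthesis, axonal, respiratory chain and myelin genes the left.

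T cell genes were present in every allogeneic library, and in non-injured cord most of them were at or near 0 counts. All 22 tested members of 24 were higher, with a median log2 fold change of 5.50 (5.44 with the members at 0 in non-injured cord set to their lower bound). A gene was tested only where enough libraries held counts, and some members, such as Cd8b1, passed only through the allogeneic libraries. Such genes could hardly come out lower, so that all 22 were higher was partly fixed in advance. Cd8a, a chain of the CD8 co-receptor, was at 13.9, 25.7 and 13.01 CPM in the allogeneic libraries and had no count in the non-injured ones, at least 322-fold higher with 3 counts over the group as the floor (adjusted p = 3.02e-05). Its partner Cd8b1 was at 8.62, 14.9 and 6.78 against 0, 0.0625 and 0.0513 CPM, a ratio of depth-scaled counts of 275 (95% counting interval 75.7 to 2279). Cd3e, a signalling chain of the T cell receptor, was at 5.77, 8.35 and 3.88 against 0, 0.0625 and 0.0513 CPM, a ratio of 165 (95% counting interval 45.2 to 1370). Allogeneic library 2 was the highest of the 6 for all 3 genes. Intervals and floors cover counting error only. In bulk tissue a change in the number of cells of a type and a change in RNA per cell cannot be told apart, here and below.

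Cd4, the co-receptor of helper T cells that is also found on some myeloid cells, was at 1.17, 2.26 and 2.17 against 0.0386, 0.0625 and 0.154 CPM (log2 fold change 4.39 ± 0.74, adjusted p = 0.00138; log2 fold change 5.08 without non-injured library 3). The kinase Lck, which starts the receptor signal, was at 5.84, 12.98 and 5.72 against 0.502, 0.562 and 0.564 CPM (log2 fold change 3.88 ± 0.38, adjusted p = 6.53e-05). Trac, the constant region of the receptor alpha chain, was at 7.199, 13.2 and 6.18 against 2.63, 2.25 and 2.102 CPM (log2 fold change 1.90 ± 0.28, adjusted p = 0.000682). These genes were lower in every non-injured library than in any allogeneic library, but unlike Cd8a they were not absent there. The homing receptors Cxcr6 and Cxcr3 were at 9.66, 22 and 6.74 CPM and 3.697, 9.48 and 3.18 CPM in the allogeneic libraries, against 0, 0.0625 and 0 CPM and 0.0386, 0 and 0.0513 CPM in the non-injured ones. Foxp3, the regulator of regulatory T cells, was too low to test, with 2 counts over the allogeneic and 4 over the non-injured libraries.

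All 11 tested genes of cytotoxic lymphocytes, of 16, were higher as well (median 5.74, or 5.66 with Prf1 at its lower bound). Some of these too, such as Gzmk, held enough counts to be tested only through the allogeneic libraries, with the same limit. Ccl5, a chemokine of memory CD8 T cells, was at 11.9, 23.2 and 15.1 against 0.0773, 0.312 and 0.103 CPM (log2 fold change 6.74 ± 0.43, adjusted p = 2.44e-05; log2 fold change 7.45 without non-injured library 2). Ctsw, a protease of cytotoxic cells, was at 7.46, 15.2 and 5.44 against 0.271, 0.125 and 0.103 CPM (log2 fold change 5.66 ± 0.49, adjusted p = 5.72e-05; log2 fold change 6.27 without non-injured library 1). Nkg7, a cytotoxic granule protein, was at 4.61, 10.3 and 6.46 against 0.0386, 0.0625 and 0.256 CPM (log2 fold change 5.85 ± 0.55, adjusted p = 6.16e-05; log2 fold change 7.004 without non-injured library 3). For all 3 the lowest allogeneic library stood more than 10-fold above the highest non-injured library. The pore-forming protein Prf1 was at 0.843, 3.27 and 0.692 CPM in the allogeneic libraries with no count in the non-injured ones, at least 25.4-fold higher (adjusted p = 0.00309). Of the granule proteases, Gzmb was at 2.08, 3.27 and 1.15 against 0.0773, 0 and 0 CPM, a ratio of 57.4 (95% counting interval 15.4 to 482). Interferon-gamma itself, Ifng, was too low to test, with 9 counts over the allogeneic and 1 over the non-injured libraries.

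Checkpoint and tissue-residency genes rose in 9 of 10 tested members of 12 (median 2.86). The member Tigit had 17, 13 and 28 counts in the allogeneic libraries and 0 in the non-injured ones. It held enough counts to be tested only through the allogeneic libraries, with the limit given for T cell genes. Lag3, an inhibitory receptor that binds MHC class II, was at 52.1, 59.4 and 56.5 against 4.91, 3.12 and 4.82 CPM (log2 fold change 3.69 ± 0.27, adjusted p = 3.01e-05). Pdcd1, which encodes PD-1, was at 4.47, 6.77 and 5.21 against 0.0386, 0 and 0.308 CPM (log2 fold change 5.49 ± 0.57, adjusted p = 8.19e-05; log2 fold change 7.48 without non-injured library 3). Havcr2, which encodes TIM-3, was at 21.7, 30.4 and 36.8 against 2.63, 2.37 and 3.38 CPM (log2 fold change 3.40 ± 0.37, adjusted p = 0.000101). These inhibitory receptors separated the groups, as did the PD-1 ligand Cd274 (log2 fold change 1.54 ± 0.20, adjusted p = 0.000318). Lag3 and Havcr2 were at 2.37 CPM or more in every non-injured library, where Cd3e was at most 0.0625 CPM. Which cells made them was not tested. Summed levels of the list were 240 to 300 CPM in the allogeneic, 207 to 247 CPM in the SCI alone and 61.2 to 68.2 CPM in the non-injured libraries. The median of the list against SCI alone was 0.379. The transcription factor Tox was the tested member not called, at 7.13, 5.87 and 6.504 against 7.38, 8.93 and 6.102 CPM (log2 fold change -0.19 ± 0.18, adjusted p = 0.462).

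B cell genes gave a mixed picture, with 4 of 8 tested members of 15 higher (median 1.81; 2 higher without non-injured library 1 or 2). The 4 encode antibody chains or the joining chain. Igha was at 1.297, 10.7 and 9.92 against 0.0773, 0 and 0 CPM, a ratio of 220.4 (95% counting interval 60.5 to 1827). Igkc was at 3.502, 9.48 and 21.9 against 0.5798, 0.437 and 0.462 CPM (log2 fold change 4.53 ± 1.05, adjusted p = 0.00902; log2 fold change 3.67 without allogeneic library 3). Jchain was at 1.56, 3.16 and 6.23 against 0.348, 0.437 and 0.923 CPM (log2 fold change 2.71 ± 0.75, adjusted p = 0.0209, and 0.0662 to 0.108 without allogeneic library 3 or non-injured library 1 or 2; log2 fold change 2.03 without allogeneic library 3). The B cell receptor genes Cd79b (log2 fold change 0.90 ± 0.47, adjusted p = 0.183) and Cd79a (log2 fold change -0.35 ± 0.55, adjusted p = 0.688) were not called.

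**Figure D3:**
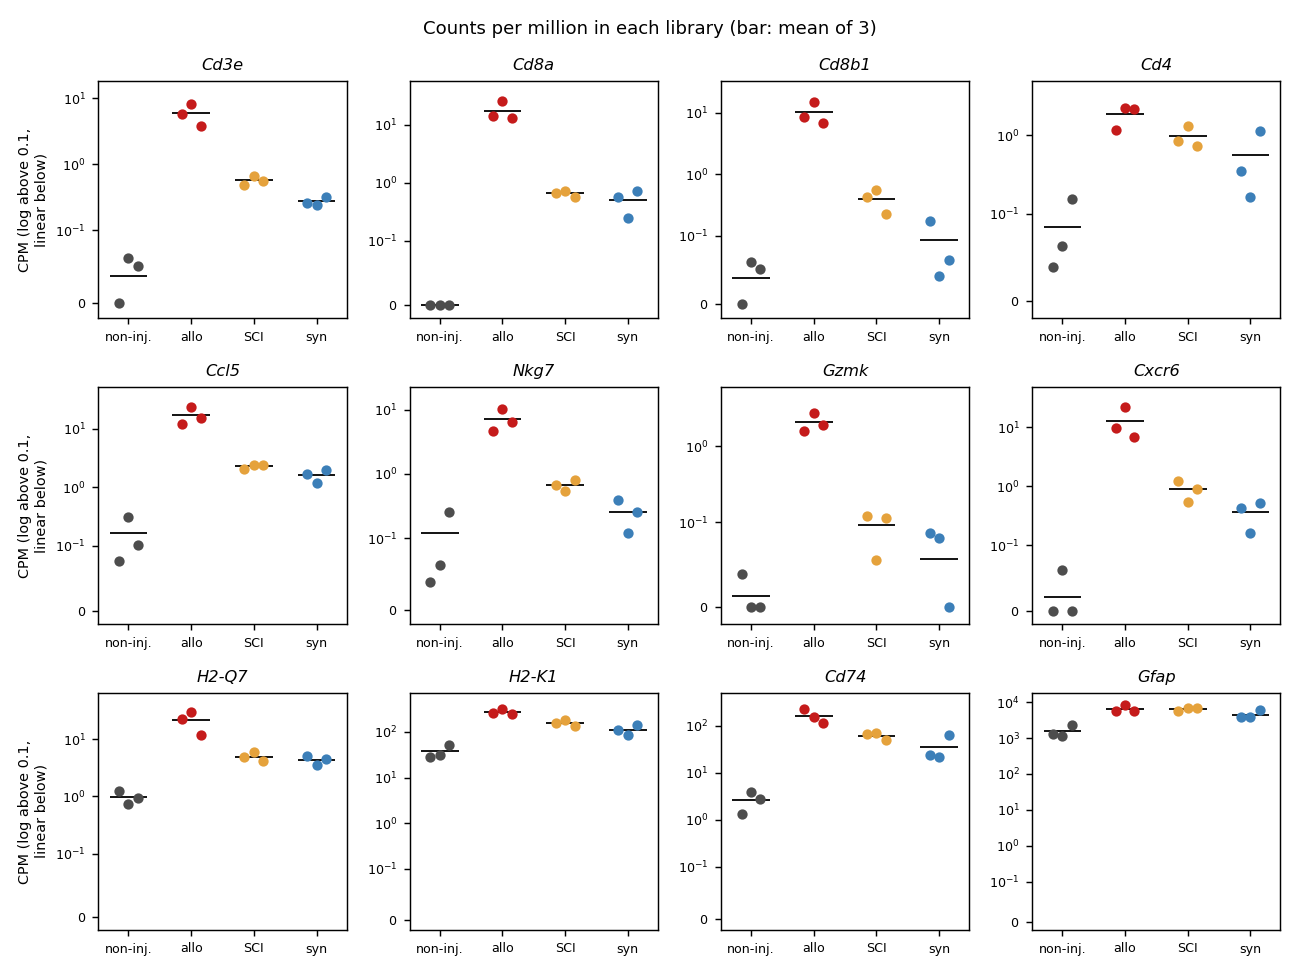
Each panel plots the CPM of 1 gene in the 12 libraries (3 per group, bar at the mean of 3; the axis is logarithmic except close to 0). The T cell genes are at or next to 0 in non-injured cord and highest in the allogeneic libraries.

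All 19 genes of MHC class I presentation were tested and all 19 were higher (median 2.63). The class I heavy chain H2-D1 was at 447, 600.2 and 563 against 68.7, 69.5 and 87.8 CPM (log2 fold change 2.83 ± 0.22, adjusted p = 3.33e-05). H2-K1 was at 264, 326 and 247 against 28.8, 31.9 and 52.2 CPM (log2 fold change 2.89 ± 0.26, adjusted p = 5.73e-05). The non-classical H2-Q7 was at 22.8, 29.3 and 11.9 against 1.24, 0.7496 and 0.923 CPM (log2 fold change 4.41 ± 0.35, adjusted p = 3.72e-05). These heavy chain genes are near-identical copies in places, so how reads fell between them is uncertain. B2m, the light chain of all class I molecules, was at 682, 926 and 771 against 99.7, 103 and 182 CPM (log2 fold change 2.63 ± 0.27, adjusted p = 7.41e-05), with its highest non-injured library at 182 CPM and its lowest allogeneic library at 682 CPM. The immunoproteasome gene Psmb8, at 24.1, 31.5 and 29.1 against 2.44, 2.499 and 3.897 CPM (log2 fold change 3.26 ± 0.25, adjusted p = 3.07e-05), had the smallest p of the list. Its partner Psmb9 (log2 fold change 3.25 ± 0.29, adjusted p = 5.73e-05), the peptide transporter Tap1 (log2 fold change 2.96 ± 0.28, adjusted p = 6.39e-05) and the class I transactivator Nlrc5 (log2 fold change 3.39 ± 0.36, adjusted p = 9.42e-05) also rose.

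Class II presentation genes were higher in 14 of 15 (median 3.35). The invariant chain Cd74, which escorts class II molecules, was at 224, 153 and 112 against 1.31, 3.81 and 2.72 CPM (log2 fold change 6.01 ± 0.53, adjusted p = 5.72e-05). The class II chain H2-Aa was at 84.7, 64.7 and 49.1 against 0.464, 1.87 and 0.513 CPM (log2 fold change 6.22 ± 0.58, adjusted p = 6.06e-05; log2 fold change 7.07 without non-injured library 2). Ctss, the protease that trims the invariant chain, was at 806, 1137 and 1319 against 69.6, 63.4 and 96.7 CPM (log2 fold change 3.83 ± 0.36, adjusted p = 6.36e-05). Allogeneic library 1 had the highest Cd74 and H2-Aa of the 6 and the lowest Ctss of its group. The class II transactivator Ciita was at 1.49, 1.24 and 1.199 against 0.0386, 0 and 0.0513 CPM, a ratio of 40.1 (95% counting interval 10.6 to 338). Of the costimulatory molecules, Cd86 (log2 fold change 3.13 ± 0.36, adjusted p = 0.00014) and Cd80 (log2 fold change 2.38 ± 0.40, adjusted p = 0.00144) were higher, whereas Cd40 was not called, at 0.973, 1.58 and 1.71 against 0.502, 0.875 and 1.64 CPM (log2 fold change 0.51 ± 0.39, adjusted p = 0.366).

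Genes of the interferon response are controlled through response elements near their start sites, and 4 such windows are printed here, of genes that rose and that hold a searched element. Searched on both strands were the core of the interferon-stimulated response element, which is GAAA, any 2 bases and GAAA again, and TTCNNNGAA, the gamma-activated site, in the 250 bases before each start site in RefSeq (GRCm38.p6). Capitals mark a match, and a match on the other strand reads as its reverse complement. The windows are Irf1 (chr11:53769764-53770013, plus strand), Igtp (chr11:58199306-58199555, plus strand), Cxcl10 (chr5:92348890-92349139, minus strand) and Ifit3 (chr19:34583279-34583528, plus strand).
Irf1: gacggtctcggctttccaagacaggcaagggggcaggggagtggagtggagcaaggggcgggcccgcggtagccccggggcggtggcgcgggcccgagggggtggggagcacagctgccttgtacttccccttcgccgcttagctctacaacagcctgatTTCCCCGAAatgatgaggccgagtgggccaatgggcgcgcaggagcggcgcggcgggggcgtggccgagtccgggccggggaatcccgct
Igtp: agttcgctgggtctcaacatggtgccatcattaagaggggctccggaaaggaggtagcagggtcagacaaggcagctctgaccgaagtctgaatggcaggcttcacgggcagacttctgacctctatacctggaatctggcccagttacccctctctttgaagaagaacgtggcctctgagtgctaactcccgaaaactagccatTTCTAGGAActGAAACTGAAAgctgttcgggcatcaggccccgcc
Cxcl10: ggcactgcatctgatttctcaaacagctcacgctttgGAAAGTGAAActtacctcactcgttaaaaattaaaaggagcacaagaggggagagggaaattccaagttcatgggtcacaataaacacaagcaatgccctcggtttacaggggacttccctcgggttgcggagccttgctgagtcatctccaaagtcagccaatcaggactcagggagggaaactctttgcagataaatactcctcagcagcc
Ifit3: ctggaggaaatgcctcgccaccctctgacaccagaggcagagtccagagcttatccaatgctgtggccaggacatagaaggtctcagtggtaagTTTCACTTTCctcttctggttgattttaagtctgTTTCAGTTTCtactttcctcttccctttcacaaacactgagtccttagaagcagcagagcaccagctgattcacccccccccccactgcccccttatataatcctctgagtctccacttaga

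The gamma-activated site letters lie 90 bases before the start site in Irf1 and 45 bases before it in Igtp. The response element letters lie 34 bases before the start site in Igtp, 213 in Cxcl10, and 156 and 122 in Ifit3. Of 15 genes of the interferon-gamma list found in the RefSeq table, 10 (66.7%) held the response element core and 7 (46.7%) held TTCNNNGAA. Over all 27025 genes of the table the shares were 3.46% and 8.13%. The type I list held them in 7 (46.7%) and 3 (20%) of 15 genes, and the class I presentation list in 2 (12.5%) and 2 (12.5%) of 16. Several genes with a match are related copies of the Gbp and Irg families and share sequence. A match of letters is a description, not a measured binding site.

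All 18 tested interferon-gamma response genes, of 19, were higher (median 2.19). Irf1, a transcription factor at the head of the response, was at 18.4, 19.97 and 18.3 against 4.37, 4.25 and 4.77 CPM (log2 fold change 2.08 ± 0.14, adjusted p = 3.01e-05). Cxcl10, a chemokine for T cells that carry Cxcr3, was at 26.9, 13.5 and 10.2 against 0.271, 0.125 and 0.256 CPM (log2 fold change 6.18 ± 0.55, adjusted p = 5.73e-05). Irf8, a transcription factor of mononuclear phagocytes, was at 42.02, 64.5 and 53.2 against 4.72, 4.18 and 4.87 CPM (log2 fold change 3.53 ± 0.33, adjusted p = 6.34e-05). Irf1 was even within each group, whereas Cxcl10 varied in the allogeneic group, with library 1 the highest. Cxcl9, the other ligand of Cxcr3 listed, was at 8.95, 4.4 and 2.31 against 0.0386, 0 and 0 CPM, a ratio of 303 (95% counting interval 53.9 to 12030). Of the GTPases that act on intracellular pathogens, Gbp2 (log2 fold change 3.27 ± 0.33, adjusted p = 7.41e-05) and Igtp (log2 fold change 2.31 ± 0.32, adjusted p = 0.000406) rose, as did the receptor chain Ifngr1 (log2 fold change 1.36 ± 0.20, adjusted p = 0.000633). Ido1, an enzyme induced by interferon-gamma, was too low to test, with 5 counts against 11.

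Type I interferon-stimulated genes rose in 17 of 20 (median 1.76). Ifit3, an antiviral RNA-binding complex protein, was at 75.2, 46.1 and 30.7 against 6.61, 6.62 and 8.36 CPM (log2 fold change 2.81 ± 0.34, adjusted p = 0.00018). Its relative Ifit2 was at 50.7, 39.8 and 28.7 against 13.2, 12.7 and 14.97 CPM (log2 fold change 1.54 ± 0.19, adjusted p = 0.000177). Mx1, an antiviral GTPase, was at 8.301, 7.22 and 2.21 against 0.155, 0.2499 and 0.103 CPM (log2 fold change 5.09 ± 0.68, adjusted p = 0.000332). Allogeneic library 3 was the lowest of its group for all 3 and still above every non-injured library. Mx2 was at 7.39, 3.498 and 4.61 against 2.59, 2.499 and 6.87 CPM (log2 fold change 0.39 ± 0.39, adjusted p = 0.503). Stat2 was at 46.5, 38.7 and 27.5 against 28.9, 28.5 and 32 CPM (log2 fold change 0.33 ± 0.16, adjusted p = 0.145). Neither was called, and both overlapped between the groups.

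Microglia are the resident macrophages of the cord, and 12 of 14 of their homeostatic genes were higher (median 1.90). Aif1, the actin-binding protein IBA1, was at 22.8, 33.1 and 36.3 against 3.75, 3.25 and 5.03 CPM (log2 fold change 2.93 ± 0.26, adjusted p = 5.73e-05). Csf1r, the survival receptor of microglia and macrophages, was at 325, 392 and 359.8 against 71.1, 65.4 and 84.5 CPM (log2 fold change 2.28 ± 0.22, adjusted p = 6.39e-05). Cx3cr1, the fractalkine receptor, was at 216, 286 and 252 against 43.3, 38.6 and 53.99 CPM (log2 fold change 2.47 ± 0.24, adjusted p = 6.7e-05). The groups were far apart in all 3, which infiltrating macrophages express as well. Tmem119 (log2 fold change 1.73 ± 0.20, adjusted p = 0.000161) and the purinergic receptor P2ry12 (log2 fold change 0.75 ± 0.15, adjusted p = 0.00351), more restricted to microglia, were also higher. Sall1, a transcription factor of microglia, was at 74.1, 74.7 and 63.2 against 50.2, 48.2 and 67.8 CPM (log2 fold change 0.35 ± 0.14, adjusted p = 0.0815). The fructose transporter Slc2a5 was at 3.76, 2.71 and 2.54 against 3.44, 3.498 and 3.49 CPM (log2 fold change -0.21 ± 0.19, adjusted p = 0.451). Neither was called.

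Genes of lipid-laden phagocytes and their lysosomes rose in 22 of 24 (median 3.70). Itgax, the CD11c integrin, was at 62.5, 67.5 and 72.2 against 0.348, 0.625 and 0.359 CPM (log2 fold change 7.28 ± 0.53, adjusted p = 3.01e-05). Clec7a, the beta-glucan receptor Dectin-1, was at 78.4, 121 and 128 against 1.16, 0.687 and 1.18 CPM (log2 fold change 6.71 ± 0.51, adjusted p = 3.01e-05). Gpnmb, a glycoprotein of foamy macrophages, was at 402, 992 and 1099 against 3.94, 1.62 and 6.82 CPM (log2 fold change 7.63 ± 1.05, adjusted p = 0.000417). Allogeneic library 1 was the lowest of its group for all 3, by more than 2-fold for Gpnmb, and still above every non-injured library. The lipid receptor Trem2 (log2 fold change 4.29 ± 0.44, adjusted p = 7.96e-05), apolipoprotein E (Apoe, log2 fold change 3.004 ± 0.43, adjusted p = 0.00055) and the lysosomal protease Ctsd (log2 fold change 3.40 ± 0.43, adjusted p = 0.000236) were higher too. Atp6v0d2, a subunit of the lysosomal proton pump, was at 7.46, 28.9 and 43.1 against 0.0386, 0 and 0 CPM, a ratio of 1744 (95% counting interval 312 to 68940). The fatty acid-binding protein Fabp5 (log2 fold change 0.41 ± 0.24, adjusted p = 0.241) and the protease Ctsk (log2 fold change 0.70 ± 0.35, adjusted p = 0.173) were not called.

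Genes of blood-derived monocytes and macrophages were higher in 16 of 20 (median 3.35). Fcgr1, the high-affinity antibody receptor, was at 24.1, 30.5 and 28.1 against 2.28, 2.06 and 3.28 CPM (log2 fold change 3.43 ± 0.28, adjusted p = 4.17e-05). Ccr2, the chemokine receptor of monocytes, was at 5.58, 10.04 and 5.17 against 0.155, 0.187 and 0.256 CPM (log2 fold change 5.07 ± 0.48, adjusted p = 6.36e-05). The integrin Itgam was at 124, 152 and 115 against 18.8, 16.7 and 21.3 CPM (log2 fold change 2.78 ± 0.27, adjusted p = 6.39e-05). All 3 separated the groups, as did Ms4a7, a marker of border and blood-derived macrophages, at 9.92, 28.8 and 31.7 against 0.271, 0.0625 and 0.308 CPM (log2 fold change 6.66 ± 0.92, adjusted p = 0.000429). Of the genes linked to alternative activation, Mrc1 rose (log2 fold change 2.41 ± 0.54, adjusted p = 0.00784). Arg1 was not called, at 0.259, 0.113 and 0.784 against 0.271, 0.187 and 0.103 CPM (log2 fold change 1.18 ± 0.59, adjusted p = 0.169). Chil3 was not called either, at 1.297, 1.01 and 2.35 against 0.464, 1.25 and 0.769 CPM (log2 fold change 1.01 ± 0.44, adjusted p = 0.119).

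Neutrophil genes were higher in 3 of 10 tested members of 13 (median 0.90; 5 higher without non-injured library 2). Csf3r, a growth factor receptor that microglia also express, was at 49.4, 66.6 and 47 against 7.65, 5.56 and 8.56 CPM (log2 fold change 2.89 ± 0.30, adjusted p = 8.19e-05). The collagenase Mmp8 was at 1.297, 0.7898 and 1.38 against 0.116, 0.375 and 0.205 CPM (log2 fold change 2.42 ± 0.47, adjusted p = 0.0035). Lactoferrin, Ltf, was at 4.09, 2.48 and 1.94 against 0.734, 1.31 and 0.872 CPM (log2 fold change 1.56 ± 0.40, adjusted p = 0.0149, and 0.0529 to 0.065 without allogeneic library 1 or non-injured library 1). The granule genes S100a9 (log2 fold change 0.86 ± 0.40, adjusted p = 0.139) and Mpo (log2 fold change 0.44 ± 0.59, adjusted p = 0.622) were not called. Of 6 tested dendritic cell genes 2 were higher and 1 lower (median 0.66; 1 higher without allogeneic library 2 or 3 or non-injured library 1). The higher ones were Itgax, given above, and the lectin Clec10a, at 0.713, 0.7898 and 0.784 against 0.0773, 0.375 and 0.256 CPM (log2 fold change 1.77 ± 0.54, adjusted p = 0.0341, and 0.0508 to 0.125 without allogeneic library 1, 2 or 3 or non-injured library 1 or 3). The lower one was the growth factor receptor Flt3, at 21.7, 18.8 and 14.2 against 32.1, 31.3 and 28.5 CPM (log2 fold change -0.75 ± 0.16, adjusted p = 0.00549). Clec9a and Xcr1, markers of the dendritic cells that prime CD8 T cells, were too low to test, with 23 counts against 1 and 9 against 0.

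All members of the lists of pathogen sensors and of Fc receptors rose. All 15 Toll-like receptor and NADPH oxidase genes were higher (median 3.36). Tlr2, a receptor for bacterial lipoproteins, was at 35.3, 49.6 and 34.9 against 3.63, 2.998 and 4.15 CPM (log2 fold change 3.46 ± 0.31, adjusted p = 5.73e-05). The oxidase subunit Cybb was at 55.2, 85.6 and 64.2 against 0.541, 0.7496 and 1.28 CPM (log2 fold change 6.33 ± 0.58, adjusted p = 5.78e-05). The oxidase organiser Ncf1 also rose (log2 fold change 3.07 ± 0.32, adjusted p = 7.93e-05). All 10 Fc receptor and signalling genes were higher (median 3.44), among them the activating receptor Fcgr3 (log2 fold change 3.23 ± 0.32, adjusted p = 7.41e-05) and the inhibitory receptor Fcgr2b (log2 fold change 4.53 ± 0.50, adjusted p = 0.000113). Fcgrt, the neonatal Fc receptor, had the smallest rise of the list, at 29.1, 48.5 and 45.7 against 19.9, 18.1 and 25.4 CPM (log2 fold change 0.96 ± 0.23, adjusted p = 0.0111).

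Complement genes were higher in 13 of 16 tested members of 17 (median 3.68). C4b was at 523, 789 and 561 against 39.4, 44.2 and 67.4 CPM (log2 fold change 3.63 ± 0.30, adjusted p = 4.59e-05). C1qa, a chain of the recognition molecule C1q, was at 411, 657 and 646 against 30.03, 28.3 and 42.2 CPM (log2 fold change 4.09 ± 0.40, adjusted p = 6.9e-05). The central component C3 was at 554, 901 and 598 against 38.6, 32.4 and 84.1 CPM (log2 fold change 3.73 ± 0.50, adjusted p = 0.000371). In each the lowest allogeneic library was more than 5-fold above the highest non-injured library. Cd59a, which blocks the membrane attack complex on cells, was not called, at 31.1, 43.7 and 35.6 against 35.6, 39.4 and 57.2 CPM (log2 fold change -0.26 ± 0.21, adjusted p = 0.392). Properdin, Cfp, was not called either, at 4.41, 6.43 and 12.2 against 6.84, 8.49 and 7.59 CPM (log2 fold change 0.03 ± 0.33, adjusted p = 0.957). Both overlapped between the groups.

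Cytokine and chemokine genes rose in 15 of 20 tested members of 25 (median 2.997). Ccl3, a chemokine for monocytes and T cells, was at 10.6, 14.3 and 16.6 against 0.193, 0.2499 and 0.154 CPM (log2 fold change 6.09 ± 0.34, adjusted p = 1.36e-05), the smallest p of all genes tested. Ccl4 was at 5.45, 8.46 and 6.96 against 0, 0.187 and 0.103 CPM (log2 fold change 6.27 ± 0.55, adjusted p = 5.72e-05; log2 fold change 5.54 without non-injured library 1 and 7.08 without non-injured library 2). The interleukin 1 receptor antagonist Il1rn was at 3.18, 3.84 and 2.26 against 0.0386, 0 and 0.0513 CPM, a ratio of 88.1 (95% counting interval 23.9 to 735). The cytokine Tnf was at 1.04, 2.26 and 1.199 against 0.0773, 0.0625 and 0.0513 CPM (log2 fold change 4.33 ± 0.56, adjusted p = 0.000265). Il1b was at 1.297, 1.13 and 0.692 against 0.193, 0.187 and 0.359 CPM (log2 fold change 2.02 ± 0.46, adjusted p = 0.00814). Both stayed at or below 2.26 CPM in every allogeneic library, and their groups did not overlap. Il6 and Il10 were too low to test, with 2 counts against 6 and 1 against 0. Il18 (log2 fold change -0.52 ± 0.23, adjusted p = 0.12) and Lif (log2 fold change 0.36 ± 0.46, adjusted p = 0.612) were not called. Leukocyte adhesion genes rose in 8 of 9 tested members of 11 (median 2.17), among them Icam1 (log2 fold change 3.22 ± 0.31, adjusted p = 6.39e-05) and the integrin chains Itgb2 (log2 fold change 4.22 ± 0.42, adjusted p = 6.9e-05) and Itgal (log2 fold change 4.92 ± 0.53, adjusted p = 0.000101), while P-selectin, Selp, was not called (log2 fold change 2.17 ± 0.83, adjusted p = 0.0788).

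Reactive astrocyte genes rose in 20 of 21 tested members of 22 (median 2.58). Gfap, the astrocyte intermediate filament, was at 5626, 8155 and 5756 against 1311, 1151 and 2294 CPM (log2 fold change 2.04 ± 0.28, adjusted p = 0.000447). Tgm1, a transglutaminase, was at 21.5, 26.5 and 27.4 against 0.193, 0.125 and 0.205 CPM (log2 fold change 7.08 ± 0.46, adjusted p = 2.44e-05). Timp1, a metalloprotease inhibitor, was at 17.7, 30.6 and 32.8 against 0.193, 0.2499 and 0.8204 CPM (log2 fold change 6.01 ± 0.54, adjusted p = 5.78e-05; log2 fold change 6.92 without non-injured library 3). These 3 and the sphingolipid receptor S1pr3 (log2 fold change 2.80 ± 0.26, adjusted p = 6.05e-05) separated the groups, and non-injured library 3 had the highest Gfap and Timp1 of its group. S100a10 was not called, at 46.7, 85.2 and 78.3 against 32.5, 35.7 and 75.99 CPM (log2 fold change 0.54 ± 0.30, adjusted p = 0.22). Homeostatic astrocyte genes were higher in 4 of 15 and lower in 1 (median 0.02). The water channel Aqp4 was at 2226, 2294 and 1601 against 788, 759.7 and 1053 CPM (log2 fold change 1.23 ± 0.22, adjusted p = 0.00178). The transcription factor Sox9 was at 75.5, 83.6 and 63.3 against 29.8, 32.8 and 44.6 CPM (log2 fold change 1.05 ± 0.18, adjusted p = 0.00178). Slc7a10, an amino acid transporter, was the lower one, at 71.8, 73 and 64.6 against 136, 121 and 132 CPM (log2 fold change -0.89 ± 0.13, adjusted p = 0.000467). The glutamate transporter Slc1a2 (log2 fold change 0.23 ± 0.21, adjusted p = 0.453) and glutamine synthetase, Glul (log2 fold change 0.03 ± 0.13, adjusted p = 0.887), were not called.

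Mature myelin genes were lower in 8 of 16 and higher in none (median -0.71; 3 lower without allogeneic library 1, 2 or 3 or non-injured library 3). Fa2h, an enzyme of myelin lipid synthesis, was at 146, 161 and 140.5 against 303, 272 and 545 CPM (log2 fold change -1.33 ± 0.28, adjusted p = 0.00546). Ugt8a, which makes galactocerebroside, was at 354, 374 and 236 against 714, 614 and 1484 CPM (log2 fold change -1.54 ± 0.34, adjusted p = 0.00736). Mal, a raft protein of myelin, was at 644, 766 and 752 against 1277, 1059 and 2178 CPM (log2 fold change -1.06 ± 0.25, adjusted p = 0.0099). Non-injured library 3 was the highest for these genes, and the other non-injured libraries were above all allogeneic libraries too. Mbp was not called (log2 fold change -0.68 ± 0.36, adjusted p = 0.199), and its levels, given above, overlapped between the groups, as did those of the regulator Myrf, at 226, 236 and 217 against 217, 204 and 294 CPM (log2 fold change -0.07 ± 0.15, adjusted p = 0.759). In the oligodendrocyte precursor list 3 of 15 genes were higher and 1 lower (median 0.22; 0 lower without allogeneic library 2 or non-injured library 1 or 3). The calcium channel Itpr2 was at 65.4, 59.8 and 50.4 against 32.97, 28.6 and 34.8 CPM (log2 fold change 0.86 ± 0.18, adjusted p = 0.00564) and the proteoglycan Cspg4 (NG2) at 44.4, 51.2 and 42.7 against 26.2, 24.9 and 26.2 CPM (log2 fold change 0.84 ± 0.19, adjusted p = 0.00938). The growth factor receptor Pdgfra rose (log2 fold change 0.53 ± 0.14, adjusted p = 0.0158, and 0.0624 to 0.066 without allogeneic library 2 or non-injured library 1), and the transcription factor Olig2 was the lower one, at 48.9, 47.05 and 53.8 against 77.5, 56.5 and 92.1 CPM (log2 fold change -0.59 ± 0.16, adjusted p = 0.0202, and 0.0601 to 0.0765 without allogeneic library 2 or non-injured library 1 or 3).

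Lists of neuronal structure and signalling held falls and no rises. Of all genes tested 8.17% were lower. Beside that share the small counts below, 3 of 19 transmitter and 2 of 16 channel genes, show no clear fall of those lists. The count of calls, 2 of 13, shows none for the motor neuron list either. Its mean log2 CPM minus the non-injured mean was -0.525, -0.314 and -0.819 against -0.296, -0.0657 and 0.361. These means narrowly missed overlapping between the groups. Axonal cytoskeleton genes were lower in 9 of 13 (median -0.63; 5 lower without allogeneic library 2 or 3 or non-injured library 2). The neurofilament gene Nefm was at 1971, 2087 and 1450 against 3074, 2896 and 3995 CPM (log2 fold change -0.86 ± 0.20, adjusted p = 0.00883). Nefl was at 1939, 2069 and 1562 against 2977, 2787 and 3774 CPM (log2 fold change -0.78 ± 0.18, adjusted p = 0.00911). Stmn3, a tubulin-binding protein, was at 260, 257 and 314 against 463, 446 and 508 CPM (log2 fold change -0.77 ± 0.16, adjusted p = 0.00544). None of the 3 overlapped between the groups. The microtubule-associated genes Mapt (log2 fold change -0.19 ± 0.14, adjusted p = 0.335) and Map1b (log2 fold change -0.04 ± 0.25, adjusted p = 0.929) were not called.

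Of 13 motor neuron genes 2 were lower (median -0.69; 1 lower without allogeneic library 3 or non-injured library 2 or 3 and 4 without allogeneic library 1). The choline transporter Slc5a7 was at 119.7, 111 and 67.2 against 142, 151 and 194 CPM (log2 fold change -0.71 ± 0.20, adjusted p = 0.0225, and 0.0549 without non-injured library 3). Chodl, a marker of fast motor neurons, was at 45.5, 54.4 and 20.7 against 64.4, 81.4 and 112 CPM (log2 fold change -1.11 ± 0.33, adjusted p = 0.0312, and 0.0582 to 0.0893 without allogeneic library 3 or non-injured library 2 or 3). Chat, the enzyme that makes acetylcholine, was not called, at 24.8, 29.1 and 19.6 against 33.6, 35.5 and 32.7 CPM (log2 fold change -0.48 ± 0.18, adjusted p = 0.0805); its highest allogeneic library lay below its lowest non-injured library, as held for 2626 (15.9%) of all genes tested. Synaptic vesicle genes were lower in 5 of 20 (median -0.32; 2 lower without allogeneic library 2 or non-injured library 1, 3 without allogeneic library 3 or non-injured library 2 and 8 without non-injured library 3). Snap25, whose levels are given above, had a log2 fold change of -0.78 ± 0.17 (adjusted p = 0.00744). The vesicle GTPase Rab3a was at 309, 249 and 319 against 499, 474 and 479.8 CPM (log2 fold change -0.73 ± 0.16, adjusted p = 0.00652), and the vesicle protein Vamp1 also fell (log2 fold change -0.59 ± 0.16, adjusted p = 0.018, and 0.0594 to 0.077 without allogeneic library 2 or 3 or non-injured library 1). Syt1, the calcium sensor of release, was not called, at 164, 57.1 and 110 against 145, 180 and 30 CPM (log2 fold change -0.10 ± 0.54, adjusted p = 0.914), with its lowest value in non-injured library 3.

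Transmitter receptor, synthesis and transport genes were lower in 3 of 19 (median -0.43; 1 lower without allogeneic library 2 or 3 or non-injured library 1 or 2 and 8 without allogeneic library 1 or non-injured library 3). Glrb, the anchoring subunit of glycine receptors, was at 312, 231 and 242 against 468, 417 and 442 CPM (log2 fold change -0.76 ± 0.14, adjusted p = 0.00303). The glutamate receptor subunit Gria4 also fell (log2 fold change -0.55 ± 0.19, adjusted p = 0.0495, and 0.113 to 0.162 without allogeneic library 2 or 3 or non-injured library 1 or 2). The enzymes that make GABA, Gad1 (log2 fold change -0.17 ± 0.41, adjusted p = 0.793) and Gad2 (log2 fold change 0.02 ± 0.53, adjusted p = 0.981), were not called. Voltage-gated channel genes were lower in 2 of 16 (median -0.40; 1 lower without allogeneic library 2 or 3 or non-injured library 1, 5 without non-injured library 3 and 9 without allogeneic library 1). The potassium channel subunit Kcnab1 was at 127, 96.7 and 95.6 against 188, 182 and 173 CPM (log2 fold change -0.76 ± 0.17, adjusted p = 0.00685). The pacemaker channel Hcn2 was at 331, 300.1 and 254 against 392, 354 and 449 CPM (log2 fold change -0.43 ± 0.13, adjusted p = 0.0349, and 0.0749 to 0.105 without allogeneic library 2 or 3 or non-injured library 1 or 3). In every tested member of both lists allogeneic library 1 was the highest of its group, and in most of them non-injured library 3 was the lowest of its own. As mean log2 CPM of the tested members minus the non-injured mean, the transmitter list was at 0.435, -0.538 and -0.527 against 0.391, 0.354 and -0.746. These means overlapped between the groups, as did those of the synaptic vesicle and channel lists.

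Regeneration-associated genes, which neurons switch on after axon damage, rose in 9 of 15 (median 0.66; 5 higher without non-injured library 1). Atf3, a transcription factor induced by axon damage, was at 17.4, 31.1 and 38.1 against 0.812, 0.7496 and 2.82 CPM (log2 fold change 4.31 ± 0.56, adjusted p = 0.000276; log2 fold change 5.19 without non-injured library 3). The damage-induced endopeptidase Ecel1 was at 88.4, 81.01 and 98.9 against 28.5, 40.3 and 20.1 CPM (log2 fold change 1.60 ± 0.24, adjusted p = 0.000704). Both separated the groups, as did Sprr1a. The growth cone protein Gap43 was not called, at 134, 120.3 and 173 against 102, 118 and 51.6 CPM (log2 fold change 0.66 ± 0.24, adjusted p = 0.0702). Guidance and growth-inhibitor genes were higher in 1 and lower in 2 of 18 (median -0.09; 2 higher without non-injured library 3). The guidance factor Sema3c was at 73.5, 91.3 and 60.4 against 36.4, 38.7 and 36.6 CPM (log2 fold change 1.01 ± 0.20, adjusted p = 0.00425). The netrin receptor Unc5b was at 89.4, 79.7 and 67.5 against 120.1, 113 and 159 CPM (log2 fold change -0.73 ± 0.15, adjusted p = 0.00394). The myelin inhibitor Omg was at 145, 115 and 117 against 177, 171 and 188 CPM (log2 fold change -0.51 ± 0.11, adjusted p = 0.00764). Nogo, Rtn4, was not called (log2 fold change -0.11 ± 0.12, adjusted p = 0.519).

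Fibrillar matrix and scar fibroblast genes rose in 18 of 22 (median 2.11; 6 higher without non-injured library 1, 9 without allogeneic library 2 and 11 without allogeneic library 3). Thbs2, a thrombospondin, was at 96.2, 128 and 106 against 21.6, 22.4 and 26.5 CPM (log2 fold change 2.23 ± 0.25, adjusted p = 0.000129). Periostin, Postn, was at 17.9, 53.7 and 55.4 against 1.701, 0.687 and 1.49 CPM (log2 fold change 4.98 ± 0.74, adjusted p = 0.000672). Fibronectin, Fn1, was at 222, 343 and 360.4 against 68.7, 54.8 and 78.9 CPM (log2 fold change 2.19 ± 0.34, adjusted p = 0.000818). Each was higher in every allogeneic library than in any non-injured library. Col1a1, the main collagen of scars, was at 105, 349.5 and 282 against 8.62, 32.1 and 31.3 CPM (log2 fold change 3.36 ± 0.88, adjusted p = 0.0162, and 0.0516 to 0.0614 without allogeneic library 2 or non-injured library 1), and allogeneic library 1 was the lowest of its group for Col1a1 and Postn. The crosslinking enzyme Lox (log2 fold change 0.82 ± 0.78, adjusted p = 0.478) and smooth muscle actin, Acta2 (log2 fold change -0.52 ± 0.44, adjusted p = 0.422), were not called.

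Some markers of tissues that border the cord were called higher as well. Of all genes tested 16.7% were higher. Beside that share the Schwann cell count below, 3 of 13, shows no clear rise of that list. The summed levels of both lists below overlapped between the groups. Meningeal genes were higher in 4 of 10 (median 1.77; 1 higher without allogeneic library 3 or non-injured library 1, 2 without allogeneic library 2 and 7 without allogeneic library 1), with summed levels of 553 to 1546 CPM in the allogeneic and 562 to 1280.0 CPM in the non-injured libraries. Crabp2, a retinoic acid-binding protein, was at 0.648, 3.72 and 5.35 against 0.116, 0.2499 and 0.103 CPM (log2 fold change 4.40 ± 0.94, adjusted p = 0.00575; log2 fold change 3.74 without allogeneic library 3). Slc6a13, a meningeal transporter, was at 4.02, 18.5 and 13.9 against 1.39, 3.44 and 2.05 CPM (log2 fold change 2.42 ± 0.67, adjusted p = 0.022, and 0.0558 to 0.0858 without allogeneic library 2 or 3 or non-injured library 1 or 3). Foxc2 was at 0.973, 4.17 and 8.03 against 0.155, 0.625 and 0.8204 CPM (log2 fold change 3.11 ± 0.86, adjusted p = 0.0215, and 0.054 to 0.115 without allogeneic library 3 or non-injured library 1 or 2; log2 fold change 2.26 without allogeneic library 3). Schwann cell genes were higher in 3 of 13 (median 0.94; 6 higher without allogeneic library 1), with summed levels of 827 to 2056 CPM in the allogeneic and 214 to 1815 CPM in the non-injured libraries. Egr2, their myelin transcription factor, was at 6.81, 12.8 and 13.1 against 0.773, 3.06 and 3.85 CPM (log2 fold change 2.11 ± 0.51, adjusted p = 0.0113). The neurotrophin receptor Ngfr was at 5.902, 19.3 and 16.4 against 1.74, 1.94 and 1.38 CPM (log2 fold change 3.03 ± 0.76, adjusted p = 0.0141, and 0.0514 without non-injured library 1). The channel Scn7a was at 7.85, 18.7 and 11.4 against 3.98, 5.43 and 1.79 CPM (log2 fold change 1.75 ± 0.45, adjusted p = 0.0156, and 0.067 without allogeneic library 2). The peripheral myelin gene Prx, given above, was low in non-injured library 1 alone. The part of these tissues in the matrix result was not tested.

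Scar proteoglycan and tenascin genes moved both ways, with 4 of 12 higher and 3 lower (median -0.20; 1 lower without allogeneic library 3 or non-injured library 1 and 5 without non-injured library 3). Tenascin C, Tnc, was at 25.8, 42.6 and 31.3 against 4.99, 5.68 and 9.44 CPM (log2 fold change 2.31 ± 0.37, adjusted p = 0.00115). The sulfotransferase Chst11 was at 67.8, 76.8 and 62.96 against 39.4, 42.6 and 38.6 CPM (log2 fold change 0.78 ± 0.15, adjusted p = 0.00304). Brevican, Bcan, went down, at 240.2, 244 and 212 against 379.9, 330.2 and 346 CPM (log2 fold change -0.60 ± 0.13, adjusted p = 0.00526). The link protein Hapln1 (log2 fold change -0.94 ± 0.25, adjusted p = 0.0195, and 0.0753 to 0.0868 without allogeneic library 2 or 3 or non-injured library 1) and neurocan, Ncan (log2 fold change -0.54 ± 0.17, adjusted p = 0.0395, and 0.1 to 0.133 without allogeneic library 3 or non-injured library 1), also fell. Matrix protease and inhibitor genes were higher in 15 of 20 and lower in 1 (median 1.53; 0 lower without allogeneic library 3 or non-injured library 1, 2 or 3). Urokinase, Plau, was at 38.1, 48.6 and 42.8 against 2.09, 1.999 and 3.08 CPM (log2 fold change 4.17 ± 0.40, adjusted p = 6.55e-05). The macrophage elastase Mmp12 was at 11.7, 20.1 and 32.7 against 0.155, 0 and 0.103 CPM (log2 fold change 7.70 ± 0.76, adjusted p = 6.9e-05; log2 fold change 8.42 without non-injured library 1). Mmp19 was at 12.8, 23.8 and 23.9 against 1.62, 1.44 and 2.97 CPM (log2 fold change 3.32 ± 0.44, adjusted p = 0.000342). The gelatinase Mmp9 was the one that fell, at 12.5, 14.1 and 6.46 against 16.9, 19.4 and 20.5 CPM (log2 fold change -0.80 ± 0.25, adjusted p = 0.0357, and 0.0583 to 0.0891 without allogeneic library 3 or non-injured library 1, 2 or 3).

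Genes of mesenchymal stromal and bone cells, the class of the transplanted cells, were higher in 4 of 15 tested members of 19 and lower in 1 (median 0.26; 2 higher without allogeneic library 3 or non-injured library 1; 0 lower without allogeneic library 1, 2 or 3 or non-injured library 1 or 2). The transcription factor Prrx1 was at 16.5, 23.6 and 21.1 against 10.6, 9.06 and 12.7 CPM (log2 fold change 0.91 ± 0.21, adjusted p = 0.00961). Runx2, which lymphocytes also make, was at 4.47, 9.93 and 5.305 against 2.01, 2.31 and 1.95 CPM (log2 fold change 1.63 ± 0.39, adjusted p = 0.0104). Twist1 was at 0.908, 1.47 and 2.35 against 0.387, 0.312 and 0.667 CPM (log2 fold change 1.80 ± 0.49, adjusted p = 0.0198, and 0.0651 to 0.112 without allogeneic library 3 or non-injured library 1 or 2). Thy1, abundant in neurons, was the lower one, at 470.1, 431 and 465 against 671, 588 and 543 CPM (log2 fold change -0.40 ± 0.13, adjusted p = 0.0392, and 0.0509 to 0.152 without allogeneic library 1, 2 or 3 or non-injured library 1 or 2). The surface markers Eng (log2 fold change 0.01 ± 0.20, adjusted p = 0.98) and Nt5e (log2 fold change 0.40 ± 0.18, adjusted p = 0.128) were not called. Gene counts hold no sequence by which donor and host transcripts could be told apart. Of 9 imprinted genes 2 were higher and 1 lower (median -0.36; 0 higher without non-injured library 1 and 1 without allogeneic library 2 or 3; 0 lower without allogeneic library 2 or 3 or non-injured library 1 and 2 without allogeneic library 1 or non-injured library 3). Igf2 was at 119, 613 and 214 against 22.4, 26.9 and 37.1 CPM (log2 fold change 3.45 ± 0.87, adjusted p = 0.0141, and 0.0586 to 0.0608 without allogeneic library 2 or non-injured library 1; log2 fold change 2.54 without allogeneic library 2). H19 was at 1.88, 4.74 and 17.8 against 0.619, 0.625 and 0.769 CPM (log2 fold change 3.62 ± 0.91, adjusted p = 0.0137, and 0.0557 to 0.0846 without allogeneic library 3 or non-injured library 1; log2 fold change 2.26 without allogeneic library 3). Meg3, the lower one, was at 1482, 1013 and 865 against 2546, 2730 and 1403 CPM (log2 fold change -0.99 ± 0.27, adjusted p = 0.02, and 0.0713 to 0.08 without allogeneic library 2 or 3 or non-injured library 1 or 2).

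Cholesterol synthesis was the 1 list of 53 with every tested member called lower. All 23 of 24 fell (median -1.43), 21 to 23 stayed called when any 1 library was left out, and none of the 23 overlapped between the groups, as held for 15.9% of all genes in that direction. The cord makes most of its own cholesterol, much of it in oligodendrocytes for myelin. Hmgcs1, the HMG-CoA synthase, was at 285, 246 and 239.5 against 898, 778 and 1824 CPM (log2 fold change -2.18 ± 0.38, adjusted p = 0.00183). Squalene synthase, Fdft1, was at 63.7, 58.2 and 63.9 against 140, 142 and 191 CPM (log2 fold change -1.34 ± 0.20, adjusted p = 0.000689). Non-injured library 3 was the highest for both, and the other non-injured libraries stood above every allogeneic library as well.

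Further down the pathway the isomerase Idi1 was at 18.3, 15.6 and 11.7 against 49.1, 43.6 and 80.7 CPM (log2 fold change -1.94 ± 0.31, adjusted p = 0.000965). The sterol enzymes Sqle (log2 fold change -1.61 ± 0.28, adjusted p = 0.00155), Cyp51 (log2 fold change -1.75 ± 0.30, adjusted p = 0.00147) and Msmo1 (log2 fold change -1.88 ± 0.33, adjusted p = 0.00179) also fell. Srebf2, the transcription factor of the pathway, fell too (log2 fold change -0.53 ± 0.13, adjusted p = 0.00961), and Ebp was the member nearest the threshold (log2 fold change -0.58 ± 0.19, adjusted p = 0.0449, and 0.0687 to 0.16 without allogeneic library 1, 2 or 3 or non-injured library 3). Summed levels of the list were 1160.0 to 1383 CPM in the allogeneic and 2893 to 5138 CPM in the non-injured libraries. In the same fit the median of the list was -1.46 in SCI alone and -0.89 in the syngeneic group, against the same non-injured libraries.

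**Figure D4:**
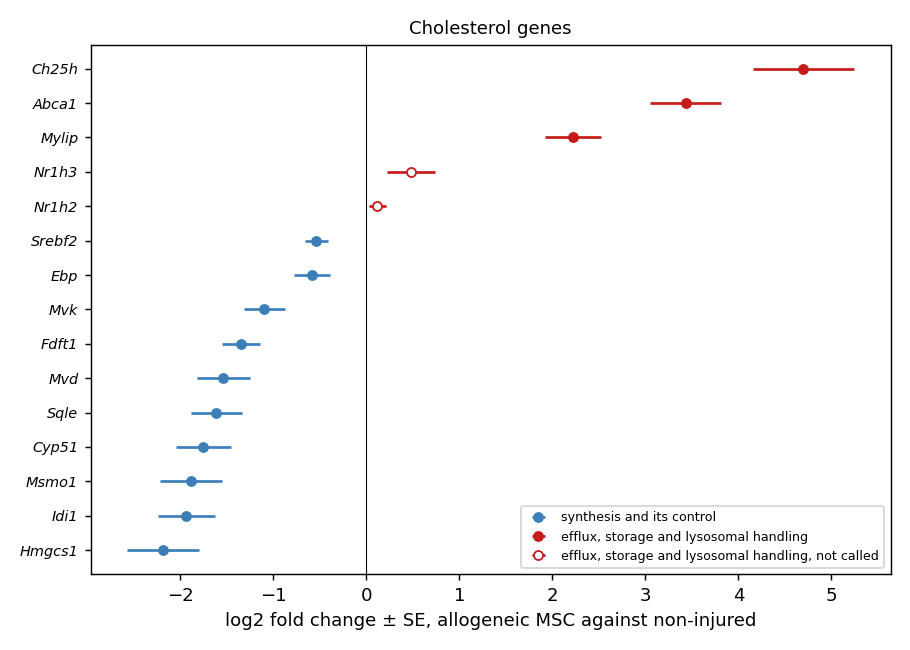
Log2 fold changes ± SE (x axis) of the genes of cholesterol synthesis and of cholesterol efflux and storage named in the text (y axis), allogeneic against non-injured; 0 is no difference. The synthesis genes drawn lie to the left of 0, and the efflux genes called, drawn as filled points, lie to the right.

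Promoters of the synthesis genes are known to be bound by SREBP2 at sterol regulatory elements, often beside CCAAT boxes bound by NF-Y, and 3 windows of genes that fell are printed to show how often these letters recur. Capitals mark TCACNCCAC and CCAAT, which reads ATTGG where the match lies on the other strand. The windows are the 250 bases before the RefSeq start sites (GRCm38.p6) of Hmgcs1 (chr13:119690101-119690350, plus strand), mevalonate kinase, Mvk (chr5:114444019-114444268, plus strand), and mevalonate diphosphate decarboxylase, Mvd (chr8:122443423-122443672, minus strand).
Hmgcs1: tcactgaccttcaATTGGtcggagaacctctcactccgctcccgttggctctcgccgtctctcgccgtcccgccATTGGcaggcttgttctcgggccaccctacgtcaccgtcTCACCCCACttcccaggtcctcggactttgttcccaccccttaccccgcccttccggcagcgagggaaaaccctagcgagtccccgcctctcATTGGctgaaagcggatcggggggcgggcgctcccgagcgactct
Mvk: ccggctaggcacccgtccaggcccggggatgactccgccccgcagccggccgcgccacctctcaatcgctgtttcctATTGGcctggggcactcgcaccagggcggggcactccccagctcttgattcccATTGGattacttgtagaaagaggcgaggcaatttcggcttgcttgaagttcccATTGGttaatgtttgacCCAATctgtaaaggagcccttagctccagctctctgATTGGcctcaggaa
Mvd: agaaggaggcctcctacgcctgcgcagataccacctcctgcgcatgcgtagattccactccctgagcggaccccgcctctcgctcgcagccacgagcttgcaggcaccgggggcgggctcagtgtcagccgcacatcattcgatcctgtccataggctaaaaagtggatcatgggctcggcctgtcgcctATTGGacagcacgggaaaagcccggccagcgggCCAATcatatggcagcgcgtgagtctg

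Hmgcs1 holds TCACNCCAC 137 bases before the start site and CCAAT at 237, 176 and 45 bases. CCAAT lies at 173, 120, 67, 50 and 14 bases in Mvk and at 60 and 27 bases in Mvd. All 16 genes of the list found in the table held CCAAT (100%), against 37.5% of the 27025 genes, and 1 of the 16 (6.25%) held TCACNCCAC, against 1.22%. Where TCACNCCAC is missing, only these letters are missing from this window. Mvk was at 14.3, 14.4 and 16.1 against 27.8, 25.9 and 42.4 CPM (log2 fold change -1.09 ± 0.22, adjusted p = 0.00397). Mvd was at 14.8, 16.02 and 14.2 against 35.9, 35.1 and 59.4 CPM (log2 fold change -1.54 ± 0.29, adjusted p = 0.00265).

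Genes of cholesterol efflux and storage went the other way, with 11 of 15 higher (median 1.16). Abca1, the transporter that exports cholesterol, was at 372, 468 and 439.6 against 39.7, 39.9 and 38.9 CPM (log2 fold change 3.43 ± 0.38, adjusted p = 0.000123). Ch25h, which makes 25-hydroxycholesterol, was at 11.5, 17.8 and 13.3 against 0.155, 0.562 and 0.974 CPM (log2 fold change 4.70 ± 0.55, adjusted p = 0.00015; log2 fold change 5.43 without non-injured library 3). Mylip, a ubiquitin ligase induced by sterols, was at 31.1, 45.7 and 46.8 against 7.23, 9.93 and 9.44 CPM (log2 fold change 2.22 ± 0.30, adjusted p = 0.000347). All 3, chosen for their small p, separated the groups, as 21.1% of all genes tested did in that direction. The sterol receptors Nr1h3 (log2 fold change 0.48 ± 0.26, adjusted p = 0.203) and Nr1h2 (log2 fold change 0.12 ± 0.09, adjusted p = 0.349), which activate these genes, were not called.

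Respiratory chain genes were lower in 9 of 17 nuclear-encoded members (median -0.45; 2 lower without allogeneic library 2, 4 without non-injured library 1 and 5 without non-injured library 3) and 5 of 12 tested mitochondrially encoded members (median -0.72; 1 lower without allogeneic library 3, 3 without allogeneic library 2 or non-injured library 1 or 3 and 8 without non-injured library 2). Cytochrome c, Cycs, was at 80.5, 78.3 and 74.4 against 108, 112 and 133 CPM (log2 fold change -0.60 ± 0.12, adjusted p = 0.00322). Cox7a2 was at 91.3, 103 and 113 against 157, 142 and 226 CPM (log2 fold change -0.77 ± 0.19, adjusted p = 0.0132), and Ndufa9 also fell (log2 fold change -0.39 ± 0.10, adjusted p = 0.0152, and 0.0562 to 0.0659 without allogeneic library 2 or non-injured library 1). mt-Nd6 was at 73.9, 65.9 and 60.1 against 122, 107 and 208 CPM (log2 fold change -1.13 ± 0.26, adjusted p = 0.00877), with mt-Nd2 (log2 fold change -0.9981 ± 0.25, adjusted p = 0.0123, and 0.0509 without allogeneic library 3) and mt-Nd1 (log2 fold change -0.92 ± 0.24, adjusted p = 0.0163, and 0.0502 without allogeneic library 3) beside it. Non-injured library 3, which had the highest mitochondrial share, was the highest for all 6 genes.

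Proliferation genes rose in 15 of 18 (median 1.59). Rrm2, a subunit of ribonucleotide reductase, was at 7.199, 7.56 and 6.96 against 2.24, 2.56 and 2.77 CPM (log2 fold change 1.52 ± 0.16, adjusted p = 0.000101). Topoisomerase Top2a was at 14.2, 16.9 and 9.46 against 1.89, 1.62 and 0.769 CPM (log2 fold change 3.21 ± 0.35, adjusted p = 0.000116). Cyclin A2, Ccna2, was at 4.54, 6.88 and 5.17 against 1.85, 1.69 and 1.64 CPM (log2 fold change 1.66 ± 0.23, adjusted p = 0.000483). The groups were apart in all 3 and in Mki67 (log2 fold change 2.31 ± 0.35, adjusted p = 0.000759). Pcna (log2 fold change 0.32 ± 0.16, adjusted p = 0.171) and Tyms (log2 fold change 0.39 ± 0.24, adjusted p = 0.267) were not called. Haem and iron genes were higher in 4 of 10 tested members of 11 and lower in 1 (median 0.37). The metal transporter Slc11a1 was at 34.4, 55.6 and 66.2 against 2.09, 1.75 and 2.92 CPM (log2 fold change 4.52 ± 0.49, adjusted p = 0.000102). Haem oxygenase, Hmox1, was at 25.2, 40.7 and 56.9 against 6.11, 5.87 and 7.69 CPM (log2 fold change 2.64 ± 0.35, adjusted p = 0.000344). Ferritin light chain, Ftl1, was at 419, 812 and 1110 against 109.6, 122 and 179.8 CPM (log2 fold change 2.51 ± 0.41, adjusted p = 0.00117). The transferrin receptor Tfrc was the lower one, at 154, 136 and 135 against 275, 201 and 243 CPM (log2 fold change -0.76 ± 0.15, adjusted p = 0.00417).

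Trophic factor and receptor genes were higher in 5 of 13 tested members of 15 and lower in 2 (median 0.60). Fgf2, a growth factor for astrocytes and precursors, was at 75.03, 94.3 and 91.4 against 14.7, 15.2 and 17.3 CPM (log2 fold change 2.46 ± 0.31, adjusted p = 0.000236). Tgfb1, a fibrogenic and immune-regulating factor, was at 20.3, 37.6 and 33.3 against 4.41, 4.497 and 7.28 CPM (log2 fold change 2.49 ± 0.35, adjusted p = 0.000444). Vegfa, the main angiogenic factor, was lower, at 44.8, 36.8 and 33.7 against 75.1, 76.1 and 71.7 CPM (log2 fold change -0.95 ± 0.14, adjusted p = 0.00074). None of the 3 overlapped between the groups. Fgf9 also fell (log2 fold change -0.92 ± 0.18, adjusted p = 0.00352). Bdnf, which supports neurons and synapses, was not called, at 9.02, 6.66 and 7.75 against 7.46, 8.43 and 3.69 CPM (log2 fold change 0.27 ± 0.25, adjusted p = 0.479). Of 18 endothelial and barrier genes 1 was higher (median -0.28; 0 higher without non-injured library 1 or 2 and 2 without non-injured library 3). Von Willebrand factor, Vwf, was at 42.9, 56.1 and 78.6 against 15.4, 20.9 and 42.2 CPM (log2 fold change 1.18 ± 0.32, adjusted p = 0.0206, and 0.0694 to 0.0773 without allogeneic library 3 or non-injured library 1 or 2). The endothelial adhesion gene Pecam1 (log2 fold change -0.09 ± 0.22, adjusted p = 0.796) and the tight junction gene Cldn5 (log2 fold change -0.41 ± 0.22, adjusted p = 0.201) were not called.

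Ependymal and motile cilia genes were higher in 5 of 13 tested members of 14 (median 0.77; 2 higher without allogeneic library 3 or non-injured library 1 or 3 and 3 without non-injured library 2). Foxj1, the regulator of motile cilia, was at 41.8, 41.5 and 45.1 against 33.3, 30.2 and 32.7 CPM (log2 fold change 0.42 ± 0.09, adjusted p = 0.00599). Rarres2, chemerin, was at 14.01, 26.7 and 28.2 against 5.53, 8.18 and 6.82 CPM (log2 fold change 1.75 ± 0.26, adjusted p = 0.000709). Cfap126, a cilium protein, also rose (log2 fold change 1.02 ± 0.28, adjusted p = 0.0224, and 0.0531 to 0.0877 without allogeneic library 3 or non-injured library 1 or 3). Hox genes, which mark position along the cord, were lower in 4 of 17 and higher in none (median -0.36; 1 lower without allogeneic library 2, 2 without allogeneic library 3 or non-injured library 1 and 8 without non-injured library 3). Hoxd9 was at 21.6, 19.3 and 22.1 against 33.8, 32.04 and 38.4 CPM (log2 fold change -0.72 ± 0.14, adjusted p = 0.00357), followed by Hoxd8 (log2 fold change -0.51 ± 0.12, adjusted p = 0.0113, and 0.0554 without allogeneic library 2) and Hoxa9 (log2 fold change -0.55 ± 0.15, adjusted p = 0.0189, and 0.0589 to 0.0808 without allogeneic library 2 or 3 or non-injured library 1).

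Circadian clock genes were higher in 6 of 17 and lower in 1 (median 0.18; 3 higher without allogeneic library 2 or 3). Bhlhe41 was at 113, 141 and 133 against 68.3, 74.6 and 81.9 CPM (log2 fold change 0.78 ± 0.12, adjusted p = 0.000806). Cry1, a repressor of the clock, was at 16.7, 16.6 and 19.1 against 13.4, 12.1 and 11.7 CPM (log2 fold change 0.49 ± 0.11, adjusted p = 0.00737), and Arntl, its activator, was the lower one, at 10.6, 9.59 and 10.7 against 17.9, 15.5 and 14.4 CPM (log2 fold change -0.62 ± 0.12, adjusted p = 0.00299). The labels do not give the hour of tissue collection. Of 12 immediate early and heat shock genes 1 was higher and 1 lower (median -0.11; 0 lower without allogeneic library 2 or 3 or non-injured library 2). Junb was at 26.3, 36.1 and 34.7 against 11.1, 11.9 and 9.44 CPM (log2 fold change 1.58 ± 0.21, adjusted p = 0.000342). Npas4 was at 1.88, 1.01 and 1.06 against 2.59, 3.75 and 2.67 CPM (log2 fold change -1.16 ± 0.32, adjusted p = 0.0207, and 0.0719 to 0.0858 without allogeneic library 2 or 3 or non-injured library 2). Fos was not called, at 45.3, 57.99 and 34.2 against 46.8, 42.9 and 41.5 CPM (log2 fold change 0.06 ± 0.22, adjusted p = 0.875).

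Transcripts of blood, muscle, sensory ganglia and fat were measured to check for other tissue in the samples. None of 7 red blood cell genes was called by edgeR or by DESeq2, 0 had an unadjusted p below 0.05 in edgeR, and all 7 overlapped between the groups; limma-voom called 1, as did edgeR without non-injured library 2. Haemoglobin was present in both groups, Hbb-bs being at 111, 179 and 232 against 122, 128 and 176 CPM. Of 4 tested muscle genes, of 8, Tnni2 was called, at 0.843, 1.92 and 1.94 against 0.116, 0.2499 and 0.718 CPM (log2 fold change 2.13 ± 0.68, adjusted p = 0.0405, and 0.101 to 0.139 without allogeneic library 2 or 3 or non-injured library 1 or 2; log2 fold change 3.14 without non-injured library 3), and the myosin Myh4 had 10 counts against 27. Of 3 tested sensory ganglion genes, of 9, Avil was called, at 1.17, 1.805 and 0.738 against 0.348, 0.437 and 0.564 CPM (log2 fold change 1.38 ± 0.36, adjusted p = 0.0155, and 0.0575 to 0.0694 without allogeneic library 2 or non-injured library 1), and the sensory channel Scn10a had 0 counts against 1. Fabp4, which macrophages and vessels also make, was at 0.778, 3.61 and 9.96 against 0.232, 0.187 and 0.718 CPM (log2 fold change 3.68 ± 1.12, adjusted p = 0.0327, and 0.058 to 0.186 without allogeneic library 2 or 3 or non-injured library 1 or 2; log2 fold change 2.45 without allogeneic library 3 and 4.49 without non-injured library 3), and the fat gene Adipoq had 7 counts against 2.

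Which of these levels differed between the allogeneic group and the other injured groups was tested directly. Against SCI alone 28 genes (0.169%) were higher and 3 (0.0182%) lower, and 22 of the 31 were members of the lists, 11 of T cells and 4 of cytotoxic lymphocytes. Some of these, such as Cd8b1 and Gzmk, were tested only through the allogeneic libraries and could hardly come out lower. Cd8a was at 0.674, 0.714 and 0.567 CPM in SCI alone against 13.9, 25.7 and 13.01 CPM in the allogeneic libraries (log2 difference 4.72 ± 0.40, adjusted p = 0.004). Cd8b1 was at 0.429, 0.549 and 0.227 CPM against 8.62, 14.9 and 6.78 CPM (log2 difference 4.61 ± 0.45, adjusted p = 0.004). Cd3e was at 0.4902, 0.659 and 0.567 CPM against 5.77, 8.35 and 3.88 CPM (log2 difference 3.35 ± 0.36, adjusted p = 0.00487). In all 3 every allogeneic library was above every SCI alone library, and SCI alone was itself above non-injured cord. Ccl5 was at 2.02, 2.42 and 2.38 CPM against 11.9, 23.2 and 15.1 CPM (log2 difference 2.87 ± 0.31, adjusted p = 0.00487). Cd3g (log2 difference 4.33 ± 0.50, adjusted p = 0.00567) and Gzmk (log2 difference 4.29 ± 0.51, adjusted p = 0.00623) followed the same order. The other members with the smallest p were Cd247 (log2 difference 3.66 ± 0.46, adjusted p = 0.00943), Ctsw (log2 difference 3.17 ± 0.40, adjusted p = 0.00943), Cd2 (log2 difference 3.33 ± 0.44, adjusted p = 0.00958), Nkg7 (log2 difference 3.37 ± 0.44, adjusted p = 0.00958) and, outside these lists, Arntl and Dbp, given below.

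These calls depended on each of the SCI alone libraries. Leaving out SCI alone library 1, 2 or 3 left 0 genes called by edgeR in each case, with the smallest adjusted p between 0.0513 and 0.0579 and 304 to 427 genes whose unadjusted p was below 0.05. Leaving out allogeneic library 1, 2 or 3 left 29, 23 and 29. The 11 T cell genes became 0 without any 1 SCI alone library and 11, 9 and 10 without allogeneic library 1, 2 or 3, and the 4 cytotoxic genes became 0 and 4, 4 and 5. DESeq2 called 71 genes with all libraries, 18 of them on the T cell list. The phagocyte, complement, reactive astrocyte, myelin, axonal, matrix and cholesterol synthesis lists had no member called, and their medians against SCI alone were 0.29, 0.13, -0.06, 0.04, 0.12, -0.24 and 0.05.

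Clock and immediate early genes supplied 4 of the 31. Dbp, an output gene of the clock, was at 20.6, 21.2 and 21.4 CPM in SCI alone against 62.4, 75.6 and 64.2 CPM in the allogeneic libraries (log2 difference 1.68 ± 0.21, adjusted p = 0.00943). Arntl was at 22.8, 21.5 and 20.4 CPM against 10.6, 9.59 and 10.7 CPM (log2 difference -1.06 ± 0.12, adjusted p = 0.00507). Npas2, which can stand in for Clock, was at 17.7, 19.3 and 17.2 CPM against 8.76, 7.11 and 7.52 CPM (log2 difference -1.21 ± 0.20, adjusted p = 0.0447). Fos was at 104, 116 and 148 CPM against 45.3, 57.99 and 34.2 CPM (log2 difference -1.42 ± 0.23, adjusted p = 0.0301). Dbp was higher and the other 3 lower in every allogeneic library than in any SCI alone library. In the syngeneic libraries Dbp was at 68.7, 79.1 and 68.2 CPM and Arntl at 8.92, 8.66 and 10.2 CPM. Clock genes follow the time of day, whose part in these 4 differences was not tested.

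Against the syngeneic group 98 genes (0.593%) were higher and 3 (0.0182%) lower in the allogeneic group, and 41 of the 101 were list members. The T cell list held 19 of them, the cytotoxic list 8, class I presentation 6 and checkpoint genes 2. Here too some T cell, cytotoxic and checkpoint genes, Tigit among them, were tested only through the allogeneic libraries and could hardly come out lower. Cd8b1 was at 0.175, 0.0408 and 0.0642 CPM in the syngeneic libraries (log2 difference 6.62 ± 0.54, adjusted p = 0.00086), Cd8a at 0.568, 0.245 and 0.707 CPM (log2 difference 5.14 ± 0.41, adjusted p = 0.000918) and Cd3e at 0.262, 0.245 and 0.321 CPM (log2 difference 4.41 ± 0.39, adjusted p = 0.000918). Their syngeneic levels were all below 1 CPM and under every allogeneic library. Ccl5 was at 1.66, 1.19 and 1.93 CPM (log2 difference 3.40 ± 0.32, adjusted p = 0.000918). Nkg7, Cd2, Cxcr6, Cd3g, Gzmk, Ctsw, Cd247 and Lck completed the 12 with the smallest p, with log2 differences of 3.08 to 5.12. Of the class I genes, H2-K1 was at 109, 84.2 and 143 CPM (log2 difference 1.32 ± 0.24, adjusted p = 0.0372) and H2-D1 at 210.5, 161 and 288 CPM (log2 difference 1.29 ± 0.21, adjusted p = 0.0198). Irf1 was at 9.27, 8.91 and 11.4 CPM (log2 difference 0.94 ± 0.13, adjusted p = 0.00777). Both heavy chains and Irf1 were higher in every allogeneic library than in any syngeneic library. Against SCI alone Irf1 was not called (log2 difference 0.46 ± 0.13, adjusted p = 0.657). There 1 of 19 class I genes and 0 of 18 tested interferon-gamma response genes were called, with list medians of 0.61 and 0.55. Against the syngeneic group these medians were 1.07 and 1.08. The phagocyte, complement and matrix lists had similar medians there, 1.05, 1.02 and 1.005.

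The number of genes called between the allogeneic and syngeneic groups, 101, depended on single libraries. Without syngeneic library 3 there were 1178 genes called, and without syngeneic library 1 or 2 there were 24 and 25; without allogeneic library 2 there were 46. For the T cell list the counts were 8, 11 and 22 without syngeneic library 1, 2 or 3 and 19, 16 and 18 without allogeneic library 1, 2 or 3. The 6 class I genes became 1, 0 and 16 and 4, 1 and 5 in the same order, the 8 cytotoxic genes 4, 4 and 10 and 7, 5 and 9, and the 2 checkpoint genes 1, 1 and 8 and 2, 2 and 2. The allogeneic libraries are shared by the comparisons with non-injured cord, SCI alone and the syngeneic group, so these sets of differences are not independent.

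**Figure D5:**
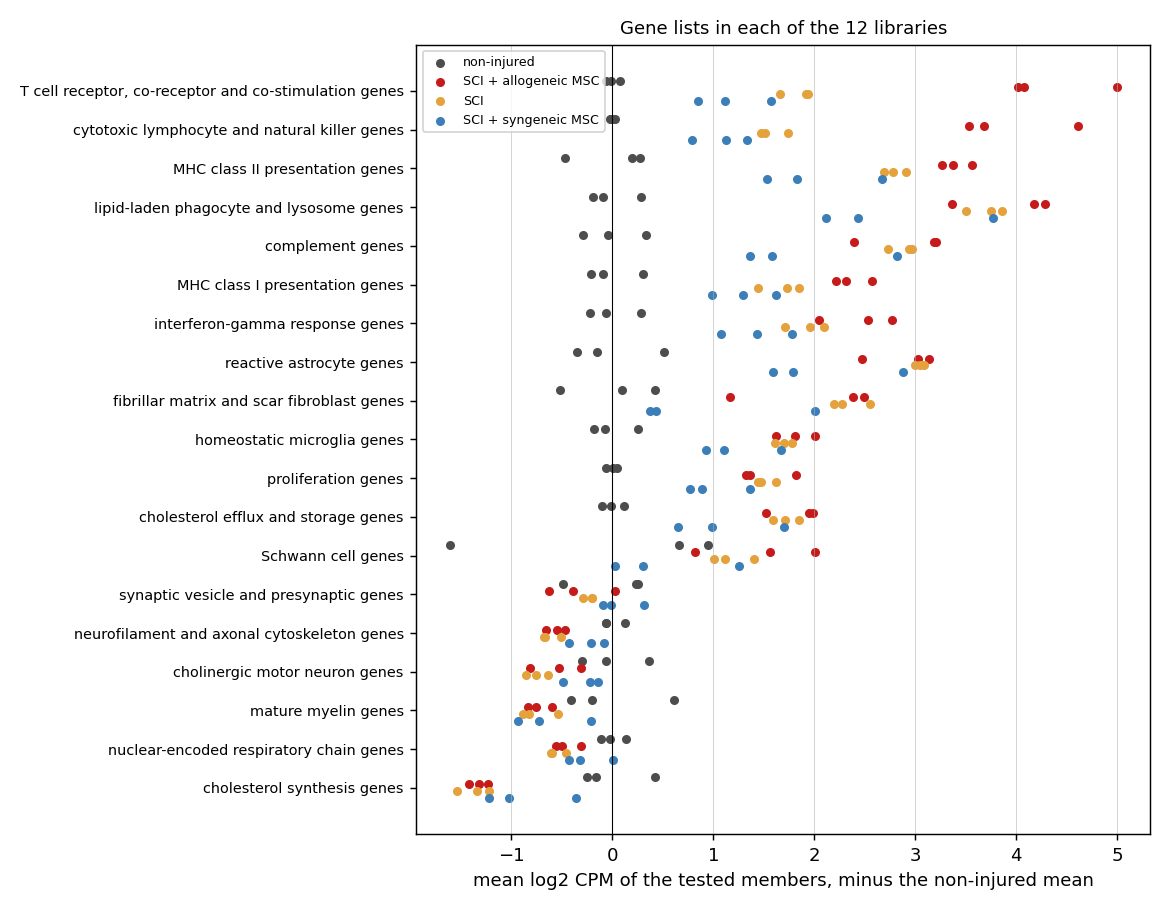
For 19 gene lists (y axis) each point is 1 of the 12 libraries, placed at the mean log2 CPM of the tested members minus the mean of the non-injured libraries (x axis). In the T cell list the allogeneic libraries lie at 4.02, 5 and 4.08, the SCI alone libraries at 1.66 to 1.94 and the syngeneic libraries at 0.844 to 1.57; in the cholesterol synthesis list all 9 injured libraries lie below 0.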

How the data were processed

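Per the labels' protocols, column-purified, DNase-treated RNA of cord tissue was made into stranded libraries after poly(A) selection. The authors deposited raw counts of reads for 46078 Ensembl genes, and 45143 of these have a symbol. Among the tools in the submitters' processing notes are STAR 2.5.1 and featureCounts 1.5.1, with the build GRCm38. Neither annotation release nor strand setting is given in the sources used here.

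From these counts, CPM and log2 fold changes were computed with edgeR 4.0.16 in R 4.3.3. Genes were kept by filterByExpr (minimum count 10, minimum total 15), scaled by TMM factors and fitted in 1 robust quasi-likelihood model of all 12 libraries in 4 groups (8 residual degrees of freedom), and p-values were adjusted by Benjamini-Hochberg. Plotted log2 CPM used a prior count of 2. A group without counts was set to a floor of 3 counts over the group, and counting intervals are exact at 95%. On simulated counts of 16292 genes with 100 genes changed at each size, edgeR recovered 82% at a log2 change of 1 and 99% at 2, with 11 false calls. These counts were drawn with the same spread setting for every gene, and only genes above a CPM cut were changed. The recovery and false calls therefore check the code and do not give error rates for the real counts, whose spread differs between genes. Alternatives were DESeq2 1.42.0, limma-voom (limma 3.58.1), other scalings and filters, the compared libraries alone and leaving out each library.

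The gene lists were chosen with earlier results of these data known. Named were the 12 largest called rises and falls at a mean log2 CPM of at least 1, and of each list the 3 called members with the smallest p, members called against its larger direction and up to 2 uncalled members. A fixed set of marker genes was also named, as were the 12 list members with the smallest p against the other injured groups; further genes were named after their values were seen. Tested genes with GENCODE M21 coordinates numbered 16461. Reads are uncertain where exons overlap an antisense gene (Cd3e, Cd247, Foxp3, Ctsw, Cd274, Tox, Tap1, Psmb8, Psmb9, Nlrc5, Ciita, Irf1, Gbp2, Cxcl10, P2ry12, Cx3cr1, Csf1r, Mpo, Il1b, Fcgr2b, Ncf1, Icam1, Selp, S1pr3, Tgm1, Slc1a2, Glul, Slc7a10, Pdgfra, Prx, Rarres2, Nefl, Nefm, Rab3a, Kcnab1, Rtn4, Fn1, Lox, Tnc, Mmp12, Mmp19, Eng, Runx2, H19, Igf2, Meg3, Hmgcs1, Idi1, Fdft1, Cyp51, Ch25h, Ndufa9, mt-Nd6, Ccna2, Ftl1, Bdnf, Fgf2, Junb, Arntl, Dbp, Bhlhe41, Avil, Cd22, Gm49339 and 4930432E11Rik) or on the same strand (Cd247, Lck, Foxp3, Ifng, Cd74, Igtp, Ctsd, Itgam, Clec9a, Glul, Pdgfra, Gria4, H19, Igf2, Meg3, Nr1h3, mt-Nd1, mt-Nd2, Top2a, Ftl1, Fgf2, Hoxa9 and Gm49339), and in families of near-identical copies (H2, Gbp and Irg, haemoglobin). Results for some genes are not reported here.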

Additional observations from a re-analysis of the deposited data

How the results depend on the processing

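The number of genes higher in the allogeneic than in the non-injured group stayed within 1.5 times of 2762 under all alternatives run, and none of the genes named reversed its direction. The number lower, 1350, was 636 with only the 6 libraries compared, and 565 to 1614 when 1 library was left out (565 without allogeneic library 2, 796 without allogeneic library 3, 730 without non-injured library 1). The 31 genes that differed from SCI alone became 71 with DESeq2, 50 with no filter on low counts, 17 with only the 6 libraries compared, and 0 to 29 with 1 library left out; it was 0 without SCI alone library 1, 2 or 3. The 101 genes that differed from the syngeneic group became 358 with DESeq2, 52 with a mean CPM of at least 1, 21 with only the 6 libraries compared, and 24 to 1178 with 1 library left out (24 without syngeneic library 1, 25 without syngeneic library 2, 1178 without syngeneic library 3 and 46 without allogeneic library 2). The cause of these shifts was not tested. Of 460 called genes among the lists and the largest changes, 353 kept their call in every alternative and 107 lost it in at least 1, and 88 of 298 uncalled genes were called in at least 1. Where a group is left with 2 libraries, the fit takes their spread from all groups. No paired analysis was possible because the labels carry no replicate numbers, and those used here follow accession order. The 8705942 counts of allogeneic library 2 give it the least precision of the 6 for genes near 1 CPM.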
